A study of Homo sapiens with 4 samples.

Results

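Heat shock proteins are molecular chaperones that bind unfolded or partly folded proteins and help them reach or regain their structure. The 10 genes described here encode abundant chaperones of the cytosol and of the mitochondrial matrix: the HSP70 proteins HSPA1A and HSPA8, the HSP110 protein HSPH1, the HSP40 protein DNAJB1, the HSP90 proteins HSP90AA1 and HSP90AB1, the small heat shock proteins HSPB1 and CRYAB, and the mitochondrial chaperonin pair HSPD1 and HSPE1. They were chosen by name, with earlier results of these data known. All 10 were present among the 28189 gene symbols of the deposited tables. FPKM (fragments scaled to transcript length and to sequencing depth) were summed over every listed locus of a symbol.

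The data are 4 RNA-seq libraries of U87, an established human glioma cell line, grown in medium with 10% serum. The shNC group (2 libraries) was infected with lentivirus made from the empty FUGW-H1 vector, and the shPTPRN3 group (2 libraries) with lentivirus carrying 1 short hairpin RNA against PTPRN, a membrane protein of secretory vesicles. A control named H1-RFP (WT) appears in the design text, which leaves the control vector uncertain. The libraries of a group are called biological replicates there, and nothing ties them to separate cultures. A p-value here therefore sets the difference between groups only against the spread within the groups of these 4 libraries. That spread is drawn in part from genes of similar level, and part of it may be technical. The question is how transcripts differ between cells with and without the hairpin. Scaled FPKM are the deposited FPKM divided by 1 factor per library.

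The targeted gene, PTPRN, had 27.6 and 19.8 scaled FPKM in the control libraries but 4.96 and 3.62 with the hairpin, or 18.1% of the control mean (limma, adjusted p = 0.0594). Of the markers chosen for U87 as a line of mesenchymal type, VIM and CD44 were at 84.6 scaled FPKM or more in every library. FN1 was at 43.2 and 66.8 in shNC and at 341 and 91.6 in shPTPRN3. TNC ranged from 22.2 to 73.8, and NES was low, from 0.973 to 4.01. The astrocyte markers GFAP and AQP4 were listed at 0 in all 4 libraries, and ALDH1L1 did not exceed 0.0956. Markers of leukocytes, epithelium, endothelium, neurons, oligodendrocytes and hepatocytes (PTPRC, EPCAM, PECAM1, RBFOX3, MBP and ALB) did not exceed 0.846. Depth, read from how wide the deposited intervals were, came to 10.35 to 23.3 M fragments per library, highest in shPTPRN3 replicate 1. In bulk RNA a smaller share of cells that express a gene and less RNA per cell cannot be told apart.

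HSP70 proteins bind short hydrophobic stretches and release them as they turn over ATP. HSP40 proteins deliver clients and stimulate that ATPase, HSP110 proteins exchange the nucleotide, HSP90 proteins act later on kinases and receptors, small heat shock proteins hold unfolded proteins without ATP, and the HSPD1 chaperonin with its HSPE1 lid encloses proteins imported into mitochondria. Transcription of many of these genes is driven by the heat shock factor HSF1, which binds heat shock elements, inverted repeats of the letters GAA and TTC spaced by 2 bases.

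Promoter sequences were taken from RefSeq (GRCh38.p14), 250 bases before to 50 bases after each annotated start, and 9 of the 10 genes had at least 1 entry, 15 in all. CRYAB had no entry. Searched on both strands, GAANNTTC or TTCNNGAA occurred in 8 of the 15 promoters (7 of the 9 genes), beside 13.5% of the 35116 promoters in the table. The longer runs GAANNTTCNNGAA or TTCNNGAANNTTC, which contain the shorter ones, occurred in 4 of the 15, 1 each for HSPA8, HSP90AA1, HSP90AB1 and HSPD1, beside 0.49% of all promoters. These matches describe letters and not occupied sites. The choice of genes did not use these letters, but heat shock chaperones were chosen, and HSF1 drives many of them. A higher share than among all promoters is therefore no independent result. Capitals mark the matched letters, each sequence runs 5′ to 3′ on the gene's own strand, and the base counts give the first and last matched base before the start of transcription.
HSPA8, chr11:123062342-123062378, minus strand, 230 to 218 bases before the start: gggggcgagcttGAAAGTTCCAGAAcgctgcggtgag
HSPA8, chr11:123062167-123062203, minus strand, 55 to 43 bases before the start: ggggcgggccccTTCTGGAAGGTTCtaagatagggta
HSP90AA1, chr14:102087093-102087144, minus strand, 88 to 61 bases before the inner start: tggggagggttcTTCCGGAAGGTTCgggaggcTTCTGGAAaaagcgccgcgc
HSP90AB1, chr6:44247766-44247802, plus strand, 165 to 153 bases before the innermost start: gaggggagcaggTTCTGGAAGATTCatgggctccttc
HSP90AB1, chr6:44247819-44247855, plus strand, 112 to 100 bases before the innermost start: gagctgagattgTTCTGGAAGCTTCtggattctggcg
HSPD1, chr2:197500056-197500090, minus strand, 245 to 228 bases before the inner start: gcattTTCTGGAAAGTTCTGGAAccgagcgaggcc
DNAJB1, chr19:14518425-14518486, minus strand, 77 to 40 bases before the middle start: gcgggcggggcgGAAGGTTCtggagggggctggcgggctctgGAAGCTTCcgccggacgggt
HSPA1A, chr6:31815425-31815456, plus strand, 106 to 99 bases before the start: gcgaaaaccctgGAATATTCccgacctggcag
HSPB1, chr7:76302479-76302510, plus strand, 182 to 175 bases before the start: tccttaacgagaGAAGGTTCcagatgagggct

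The windows of HSPH1 and HSPE1, and those at the outer starts of HSPD1, HSP90AA1, HSP90AB1 and DNAJB1, held neither form. The HSPE1 window starts at 197500129, so the nearby HSPD1 stretch printed above (197500056 to 197500090) lies outside it. The shorter match at the inner start of DNAJB1 is counted above but not printed, and lies just after that start. The 4 genes with the longer runs all had log2 fold changes below 0, at -0.21 for HSPA8, -0.13 for HSP90AA1, -0.38 for HSP90AB1 and -0.42 for HSPD1. Those with shorter runs only were above 0, at 0.50 for DNAJB1, 0.44 for HSPA1A and 0.66 for HSPB1. HSPH1 and HSPE1, whose windows held neither form, were below 0 as well, at -1.14 and -0.22. None of these values passed limma's threshold, and the relation to the motif was not tested. HSP90AA1, HSPB1 and HSPE1 change sign when 1 library is left out.

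None of the 10 genes passed the threshold in either direction. By limma, 0 of 10 had an adjusted p under 0.05, with 0.421% of the 11394 genes tested past it (48 genes: 9 higher, or 0.0790%, and 39 lower, or 0.342%). CRYAB (higher) and HSPH1 (lower) were the 2 with an unadjusted p under 0.05, which 13.5% of all genes tested had. The median log2 fold change over the 10 genes was -0.17, beside -0.01 over all genes tested, with 4 genes above 0 and 6 below. In 7 of the 10 the groups did not overlap (3 higher and 4 lower in shPTPRN3), against 44.6% of all genes tested (21.5% higher and 23.1% lower). With the replicate number as a block, a term for which the labels give no ground, 2 of the 10 (CRYAB and HSPH1) passed, as did 19.0% of all genes tested. With 2 libraries against 2, an exact permutation test cannot go below p = 0.333, two-sided.

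**Figure D1:**
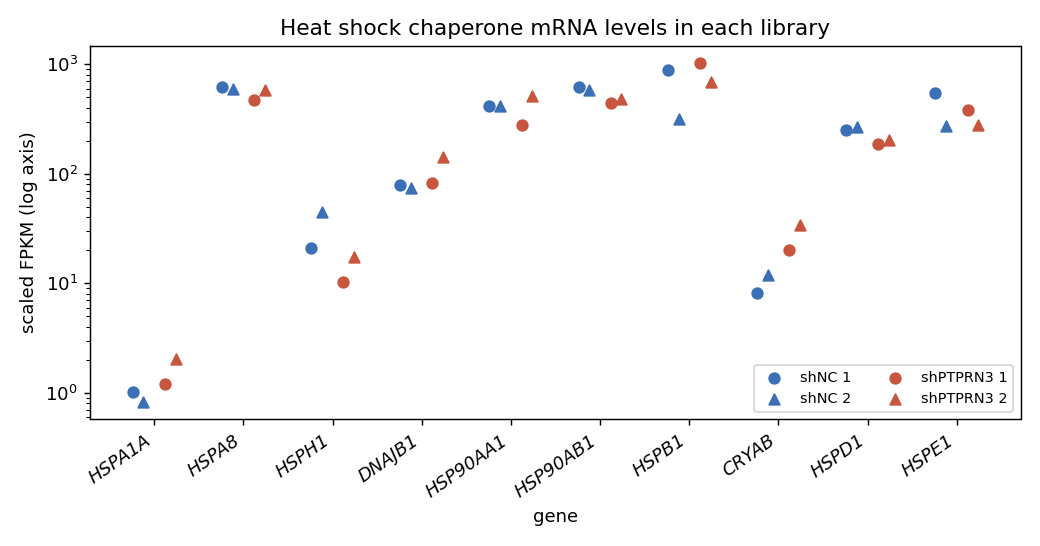
Scaled FPKM of the 10 genes (log axis) in each library; blue marks shNC, red shPTPRN3, circles replicate 1 and triangles replicate 2. CRYAB separates upward, HSPH1 downward, and HSPB1 and HSPE1 spread as much within shNC as between groups.

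CRYAB, αB-crystallin, is a small heat shock protein that binds unfolding proteins and intermediate filaments and is common in astrocytes and gliomas. It had 8.22 and 11.8 scaled FPKM in the shNC pair, then 20.3 and 33.8 in the shPTPRN3 pair. Both shPTPRN3 libraries lay above both shNC libraries, and the deposited confidence intervals of the groups (up to 13.6 FPKM in shNC, from 19.5 in shPTPRN3) did not touch. The means were 10.0 ± 2.53 and 27.1 ± 9.51 (SD, n = 2). The log2 fold change of CRYAB was 1.33 (SE 0.38), or 2.51-fold on the log2(scaled FPKM + 1) scale with a 95% interval of 1.34 to 4.68, and limma's adjusted p was 0.198. Between the 2 replicates numbered 1 the difference was 1.21, and between those numbered 2 it was 1.44. It was 0.99 without shPTPRN3 replicate 2 and 1.68 without shPTPRN3 replicate 1.

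In hg38 the row of CRYAB spans 111908564 to 111923740 of chromosome 11 (minus strand) and contains HSPB2, another small heat shock gene. HSPB2 was listed at no more than 0.467 FPKM and the read-through transcript HSPB2-C11orf52 at 0 in every library. None of the 50-base stretches of the CRYAB transcript occurred in a transcript of another GENCODE 29 gene. Interval widths correspond to 118 to 469 fragments per library for CRYAB, the fewest of the 10 genes after HSPA1A.

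HSPB1, or HSP27, the other small heat shock protein of the set, had the highest single value, 1032 scaled FPKM in shPTPRN3 replicate 1. It stood at 897 and 319 in the shNC pair, then 1032 and 689 in the shPTPRN3 pair. The groups overlapped, and the 2 shNC libraries differed more from each other than the group means (608 ± 409 and 861 ± 242, SD, n = 2). The log2 fold change of 0.66 (SE 0.66) had limma's adjusted p = 0.724, and it was -0.09 without shNC replicate 2 but 1.40 without shNC replicate 1. HSPB6 (26.1 and 26.9 in shNC, 31.5 and 19.1 in shPTPRN3) and HSPB8 (40.6 and 39.0, then 28.4 and 51.2) also overlapped between groups.

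HSPH1, or HSP110, is the nucleotide exchange factor that works with cytosolic HSP70. It had 21.0 and 45.0 scaled FPKM in the shNC pair, then 10.2 and 17.4 in the shPTPRN3 pair. The shPTPRN3 pair lay wholly under the shNC pair and the deposited intervals of the groups did not touch, although the shNC libraries differed from each other by more than the nearer shNC value exceeded the nearer shPTPRN3 value. HSPH1 had a log2 fold change of -1.14 (SE 0.46), which left 0.452 of the control level with a 95% interval of 0.212 to 0.966 on the log2(scaled FPKM + 1) scale, and limma's adjusted p was 0.35. Taken by replicate number, the difference was -0.97 for number 1 and -1.32 for number 2. It was -0.62 without shNC replicate 2 and -1.68 without shNC replicate 1. Its row spans 31134973 to 31162388 of chromosome 13 (minus strand), and none of its 50-base stretches occurred in another gene's transcript.

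DNAJB1, or HSP40, is a stress-inducible partner of HSP70. It had 78.7 and 73.7 scaled FPKM in the shNC pair, then 81.9 and 143 in the shPTPRN3 pair. The groups did not overlap, but shPTPRN3 replicate 1 was close to the controls and the difference lay in replicate 2. This gave a log2 fold change of 0.50 (SE 0.42, limma, adjusted p = 0.656), and 0.12 without shPTPRN3 replicate 2. By replicate number the differences were 0.06 and 0.94.

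HSPA1A, the stress-inducible HSP70, had the lowest level of the 10 genes. Summed over its main locus on chromosome 6 (31815543 to 31817942, plus strand) and 4 alternate sequences of that chromosome, it had 1.01 and 0.826 scaled FPKM in the shNC pair, then 1.21 and 2.04 in the shPTPRN3 pair. The sums did not overlap between groups. The values at the main locus alone did: 0.196 and 0.127 FPKM in shNC and 0.114 and 0.328 in shPTPRN3, as deposited. The log2 fold change of the sums was 0.44 (SE 0.31, limma, adjusted p = 0.579).

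The adjacent gene HSPA1B encodes the same chaperone, and 72.6% of the 50-base stretches of the HSPA1A transcript occur in HSPA1B, so the split of fragments between these copies is uncertain. HSPA1B was summed likewise over its main locus and 4 alternate sequences. The sums were 45.8 and 35.3 scaled FPKM in the shNC pair, then 49.0 and 93.9 in the shPTPRN3 pair. At the main locus alone HSPA1B had 10.6 and 7.03 FPKM in shNC and 10.1 and 17.3 in shPTPRN3, as deposited, and these overlapped. The ratio of HSPA1B to HSPA1A, both as sums, stayed between 40.4 and 46.1 in the 4 libraries. With both copies summed, the log2 fold change was 0.74 (limma, adjusted p = 0.483). As for DNAJB1, the highest value was that of shPTPRN3 replicate 2. Among the 10 genes, HSPA1A and DNAJB1 were each other's nearest profile, at a Euclidean distance of 0.249 between their centred log2 values over the 4 libraries. HSPA6, an HSP70 that is nearly silent without stress, had 0.897 and 0.445 scaled FPKM in the shNC pair, then 1.75 and 1.13 in the shPTPRN3 pair (log2 fold change 0.55, limma, adjusted p = 0.484).

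HSPA8, the constitutive HSP70 known as HSC70, was expressed at 623 and 595 scaled FPKM in the shNC pair, then 477 and 583 in the shPTPRN3 pair. The groups did not overlap, by 12.5 scaled FPKM between the nearest libraries. HSPA8 had a log2 fold change of -0.21 (SE 0.49, limma, adjusted p = 0.906), and the 95% interval of the fold, 0.386 to 1.94, includes changes in both directions. HSPA1A and HSPA1B were then added, both over all loci. HSPA8 exceeded their sum by 13.3 and 16.5 times in shNC and by 9.49 and 6.07 times in shPTPRN3. These ratios did not overlap between the groups and were not tested. Of the HSPA8 50-base stretches, 15.4% occur in transcripts of 10 other genes, among them the pseudogenes HSPA8P1 and HSPA8P8. This share was larger for HSPE1 (27.2%), HSPD1 (24.8%), HSP90AB1 (18.8%) and HSP90AA1 (17.5%). It was smaller for HSPB1 (11.4%) and DNAJB1 (2.57%).

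**Figure D2:**
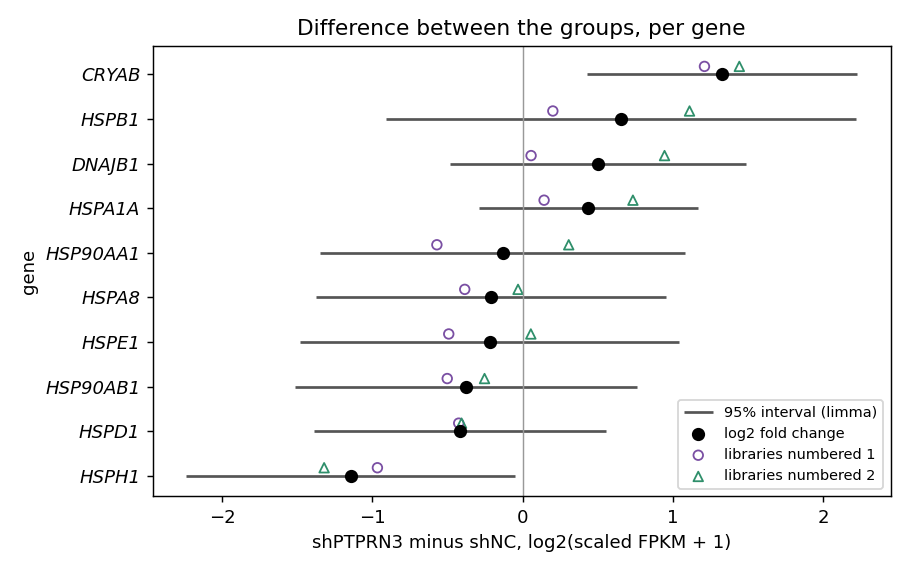
Difference between shPTPRN3 and shNC in log2(scaled FPKM + 1) for each gene (black point) with limma's 95% interval (line). Open circles and triangles are the differences by replicate number, 1 and 2; the intervals of CRYAB and HSPH1 do not include 0, and those of the remaining 8 genes do.

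HSP90AB1, the constitutive cytosolic HSP90, had 625 and 581 scaled FPKM in the shNC pair, then 441 and 488 in the shPTPRN3 pair. The groups did not overlap, and neither did the deposited intervals. The means were 603 ± 30.5 and 464 ± 33.1 (SD, n = 2), or 77.0% of control. Its log2 fold change was -0.38 (SE 0.48, limma, adjusted p = 0.787), and it ran from -0.43 to -0.18 over the alternatives.

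HSP90AA1, the inducible HSP90, had 414 and 419 scaled FPKM in the shNC pair, then 278 and 519 in the shPTPRN3 pair, the lowest and the highest of the 4 values. HSP90AA1 had a log2 fold change of -0.13 (SE 0.51, limma, adjusted p = 0.948). It was 0.31 without shPTPRN3 replicate 1 and -0.56 without shPTPRN3 replicate 2. The ratio of HSP90AA1 to HSP90AB1 was 0.663 and 0.721 in shNC, 0.632 in shPTPRN3 replicate 1 and 1.06 in shPTPRN3 replicate 2. WDR20, whose row overlaps the 5′ end of HSP90AA1 on chromosome 14 (102080742 to 102139749), was listed at 0 in every library, and how fragments in the overlap were assigned was not tested.

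Among the 10 genes, shPTPRN3 replicate 2 had the highest value for 4 (HSPA1A, HSP90AA1, DNAJB1 and CRYAB) and the lowest for none. shPTPRN3 replicate 1 had the lowest value for 5 (HSPA8, HSP90AA1, HSP90AB1, HSPH1 and HSPD1). Over all genes tested, replicate 2 was highest for 27.9% and lowest for 29.8%, and replicate 1 was lowest for 16.8%. The median difference over the 10 genes was -0.41 between the libraries numbered 1 and 0.18 between those with number 2.

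**Figure D3:**
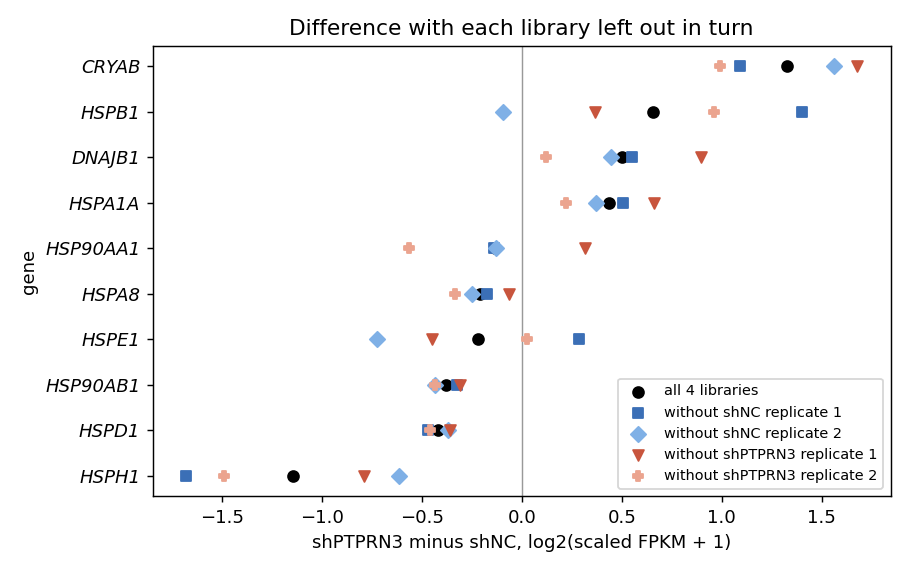
Difference between shPTPRN3 and shNC in log2(scaled FPKM + 1) with all 4 libraries (black) and with each library left out in turn. HSPD1 and HSP90AB1 hardly move; HSPB1, HSPE1 and HSP90AA1 change sign.

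HSPD1, or HSP60, forms the mitochondrial chaperonin ring. It had 250 and 268 scaled FPKM in the shNC pair, then 186 and 202 in the shPTPRN3 pair. The groups did not overlap and the deposited intervals did not touch. The means were 259 ± 13.1 and 194 ± 11.6 (SD, n = 2), or 74.9% of control. Its log2 fold change was -0.42 (SE 0.41, limma, adjusted p = 0.72), with -0.43 for replicate number 1 and -0.41 for number 2, and it stayed between -0.47 and -0.33 over the alternatives. The spread within groups was small, but limma draws the variance of each gene towards that of genes of similar level.

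HSPE1, or HSP10, the lid of the HSPD1 ring, starts 104 bases from HSPD1 on the opposite strand of chromosome 2, so both genes share a bidirectional promoter. The RefSeq window before HSPE1 is printed because it holds the HSPE1 start and the outer HSPD1 start. The inner HSPD1 start lies outside it. Capitals mark the stretch between the 2 rows of the tables (197500275 to 197500378), of which 74.0% is G or C.
HSPE1 and HSPD1, chr2:197500129-197500428, plus strand: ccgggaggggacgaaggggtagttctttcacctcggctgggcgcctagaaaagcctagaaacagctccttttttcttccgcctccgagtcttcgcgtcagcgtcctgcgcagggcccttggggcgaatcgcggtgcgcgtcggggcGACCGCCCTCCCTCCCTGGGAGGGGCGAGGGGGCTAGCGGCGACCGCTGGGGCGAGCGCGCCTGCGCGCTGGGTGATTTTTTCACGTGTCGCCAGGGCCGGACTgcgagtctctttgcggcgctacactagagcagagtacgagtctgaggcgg

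The 2 mRNAs did not keep a fixed ratio across the libraries. HSPE1 had 544 and 271 scaled FPKM in the shNC pair, then 386 and 281 in the shPTPRN3 pair, so that the shNC libraries enclosed both shPTPRN3 libraries. The ratio of HSPE1 to HSPD1 was 2.18 and 1.01 in the shNC pair, then 2.08 and 1.39 in the shPTPRN3 pair, higher in both libraries numbered 1. The log2 fold change of HSPE1 was -0.22 (SE 0.53, limma, adjusted p = 0.909). Leaving out shNC replicate 1 made it 0.28, and leaving out shPTPRN3 replicate 2 made it 0.03. The profile nearest to that of HSPE1 was HSP90AB1 and not HSPD1.

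HSPB1 and HSPE1 have the shortest transcripts of the 10 genes, 909 and 950 bases in GENCODE 29, and both were higher in the library numbered 1 of each group. The share of all FPKM in transcripts under 1000 bases was 28.7% and 20.1% in the shNC libraries and 23.7% and 17.1% in the shPTPRN3 libraries, so it too was higher in the library numbered 1; its part in these 2 results was not tested beyond the fit given next. With the trend on transcript length removed in each library, the log2 fold change of HSPB1 was 0.84 (limma, adjusted p = 0.165) and that of HSPE1 was -0.04 (adjusted p = 0.944). These 2 genes were also listed above their own confidence interval in every library, by 1.33 to 1.37 times its midpoint for HSPB1 and 1.52 to 1.56 times for HSPE1. The factor was nearly the same in the 4 libraries, so it touches their level against the other genes more than the difference between groups. HSPA8, HSP90AA1 and HSP90AB1 were listed just below their intervals in both libraries numbered 1, at 0.984 to 0.985 of the midpoint. Of 11937 rows at a mean of 1 FPKM or more, 440 were listed above their interval in every library, with a median transcript length of 1286 bases against 3264 for all of them.

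By level per transcript length, HSPA8, HSP90AB1, HSPB1, HSP90AA1 and HSPE1 were the most abundant of the set in shNC, with means of 609, 603, 608, 417 and 407 scaled FPKM. HSPD1 (259), DNAJB1 (76.2), HSPH1 (33.0), CRYAB (10.0) and HSPA1A (0.916) followed. HSPA8, HSP90AB1 and HSPB1 did not differ beyond their spread. HSP90AA1 and HSPE1 did not differ beyond theirs. At the midpoints of the deposited intervals the shNC mean of HSPB1 was 453 and that of HSPE1 was 268, beside 423 for HSP90AA1 and 262 for HSPD1, so the places of HSPB1 and HSPE1 in this order depend on which deposited value is used. In shPTPRN3 the order of CRYAB (27.1) and HSPH1 (13.8) was exchanged, with no overlap between their library values in either group. Together the 10 genes held 0.754% and 0.806% of all FPKM in shNC and 0.749% and 0.887% in shPTPRN3, which overlapped.

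The remaining chaperone machinery was read from 9 lists with 89 genes, of which 83 were tested. By limma 0 of them passed the threshold (0.421% of all genes did), and 5 had an unadjusted p under 0.05, which 13.5% of all genes had. With the replicate number as a block, 8 of the 83 passed, beside 19.0% of all genes: DNAJB4, ST13 and LONP1 higher, and DNAJC9, HSPB11, TRAP1, GRPEL2 and DNAJA3 lower. The median over the 83 genes was -0.0012, with 41 above and 42 below 0, and the groups did not overlap for 12 higher and 15 lower genes, beside 21.5% higher and 23.1% lower over all genes tested.

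**Figure D4:**
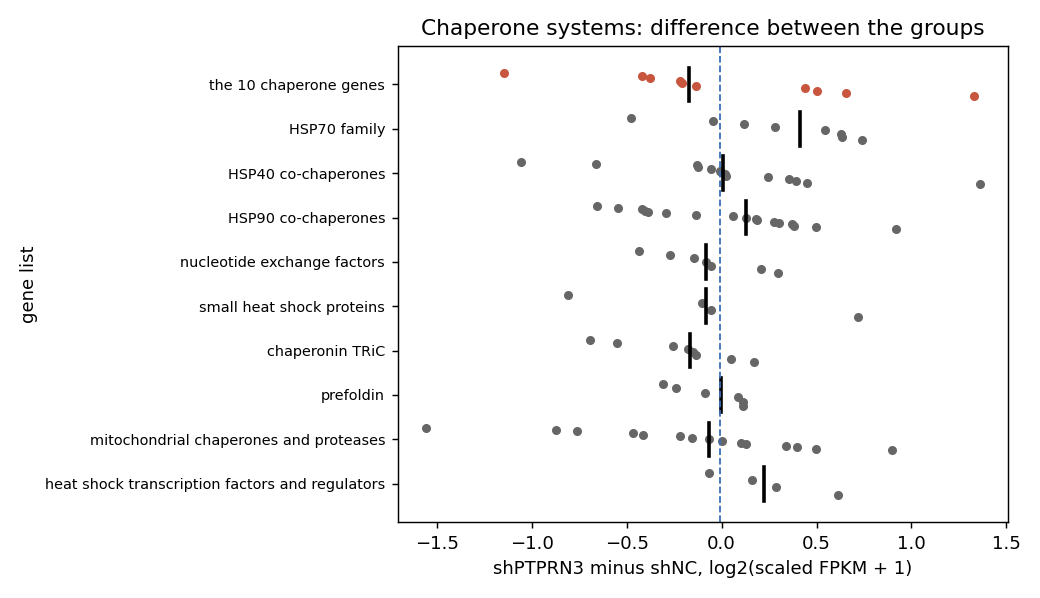
Difference between shPTPRN3 and shNC in log2(scaled FPKM + 1) for every tested gene of the chaperone lists (points), with the median of each list (black bar) and of all genes tested (dashed line). The 10 genes spread from -1.14 to 1.33, and the medians of the other lists lie between -0.16 and 0.41.

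The other HSP70 genes had a median of 0.41 over 8 tested, led by HSPA1B (0.74) and HSPA4L (0.64). The groups did not overlap for 3 of them, all higher, where 44.6% of all genes did not overlap. HSPA1B is among these on its sum over all loci, and its log2 fold change was 0.58 with alternate sequences left out. HSPA1B ran from 0.30 without shPTPRN3 replicate 2 to 1.2015 without shPTPRN3 replicate 1. Among 14 tested HSP40 genes (median 0.01), DNAJC9, a histone chaperone, stood at 24.4 and 21.0 scaled FPKM in the shNC pair, then 10.3 and 10.4 in the shPTPRN3 pair (log2 fold change -1.06, limma, adjusted p = 0.205). DNAJB4 had the largest value of that list (1.36, adjusted p = 0.422), but it was listed at 0 in shNC replicate 1, without which its value was 0.36. The 17 HSP90 co-chaperones had a median of 0.13, with ST13, which links HSP70 to HSP90, at 0.92 (adjusted p = 0.328) and PPP5C, a phosphatase, at -0.65. The 7 nucleotide exchange factors had a median of -0.08, and BAG3 (0.30) and BAG4 (-0.43) were the largest in each direction. Of the other listed genes with an HSPB symbol 4 were tested (median -0.08), with HSPB11 at -0.81 and HSPB3 at 0.72. HSPB11 was -0.28 without shPTPRN3 replicate 2 but -1.33 without shPTPRN3 replicate 1. HSPB3 was 0.41 without shNC replicate 2 but 1.11 if shPTPRN3 replicate 1 was left out.

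The subunits of TRiC, the cytosolic chaperonin that folds actin and tubulin, had a median of -0.16 over 8, of which 6 were below 0. For 4 of the 8 the groups did not overlap, all lower. Over all genes tested, 44.6% did not overlap (21.5% higher and 23.1% lower). CCT6A stood at 85.8 and 85.6 scaled FPKM in the shNC pair, then 48.3 and 57.4 in the shPTPRN3 pair (-0.69, limma, adjusted p = 0.439), and CCT7 at -0.55, or -0.19 without shNC replicate 1 and -0.92 without shNC replicate 2. The 6 prefoldin subunits, which hand clients to TRiC, overlapped between the groups in all 6 cases (median -0.0008), with VBP1 at -0.31 and PFDN2 at -0.24.

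Of the 15 mitochondrial chaperones and proteases, DNAJA3, the matrix HSP40 partner of mitochondrial HSP70, came closest to the threshold. It had 19.5 and 17.97 scaled FPKM in the shNC pair, then 6.06 and 5.37 in the shPTPRN3 pair, with a log2 fold change of -1.56 (SE 0.30, limma, adjusted p = 0.0839), and of -1.43 with its copy on an alternate sequence left out. DNAJA3 passed with the length trend removed (adjusted p = 0.0438) and without the genes listed at 0 (0.0469), and its adjusted p lay between 0.0438 and 0.346 over the alternatives with no block. TRAP1, the mitochondrial HSP90, was at -0.87 and GRPEL2, a nucleotide exchange factor of mitochondrial HSP70, at -0.76 (both adjusted p = 0.324), named after their values were seen. HSPA9, the mitochondrial HSP70 itself, was at 93.7 and 108 scaled FPKM in the shNC pair, then 83.4 and 121 in the shPTPRN3 pair, a difference of 0.00. LONP1, a matrix protease, was at 73.3 and 68.0 in the shNC pair, then 107 and 163 in the shPTPRN3 pair (0.89, adjusted p = 0.392). The mitochondrial list had a median of -0.07, with 7 genes above 0 and 8 below.

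HSF1, the factor that drives these promoters under stress, had 51.0 and 40.002 scaled FPKM in the shNC pair, then 47.7 and 53.8 in the shPTPRN3 pair, and the groups overlapped (0.16, limma, adjusted p = 0.892). HSF2 was at 6.04 and 6.53 in the shNC pair, then 6.05 and 10.2 in the shPTPRN3 pair (0.29). HSBP1, a small protein that binds HSF1, was at 15.1 and 9.54 in the shNC pair, then 20.8 and 17.3 in the shPTPRN3 pair (0.61, adjusted p = 0.481). The 4 tested genes of this list of factors and regulators, HSF1, HSF2, HSF4 and HSBP1, had a median of 0.22.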

How the data were processed

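The 4 U87 libraries were made with a strand-marking mRNA kit (labels' protocols). Reads were checked with FastQC 0.72, and STAR 2.6.0b-1 and Cufflinks 2.2.1.2 were run on hg38, per the submitters' processing notes. Which annotation and strand setting were used is not given in the sources used here. Deposited values are FPKM with a confidence interval and a status per gene row, per the file headers.

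Of 33646 rows, 651 whose status was not OK in some library were dropped, and the rest were summed per symbol (27940 symbols). FPKM were divided by median-ratio factors (1.04, 0.974, 1.05 and 0.943) from 9988 genes that reached 1 FPKM in all libraries. Testing took the 11394 genes whose mean reached 1 FPKM, and PTPRN in any case, in limma 3.58.1 (R 4.3.3). Values were log2(scaled FPKM + 1), eBayes used a trend, and tests were two-sided, with Benjamini-Hochberg adjustment at 0.05. Adding 1 makes changes of low genes look smaller. There were 2 residual degrees of freedom, plus 4.94 from the prior. The limma step was tested on simulated data.

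No fragment counts are in the tables. Depth came from interval widths taken as ±2 SD of counting error, over single-exon genes; they say nothing of the spread between libraries. Transcript lengths and 50-base stretches came from GENCODE 29, promoters from RefSeq. Table starts are given from 1. The members and gene lists were chosen with earlier results of these data known. Named genes are the 10 members, their copies and neighbours, PTPRN, HSF1, HSF2, HSPA6, HSPA9, every called gene of a list and otherwise its 2 largest changes; HSPB6, HSPB8, TRAP1 and GRPEL2 were named after their values were seen. The alternatives varied the scaling, the pseudocount, the filter, how rows are summed, eBayes, a trend with length, the replicate number as a block and leaving out each library. Python 3.11.15 with pandas 2.3.3, numpy 2.4.6 and matplotlib 3.10.9 did the rest.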

Additional observations from a re-analysis of the deposited data

How the results depend on the processing

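None of the 10 genes was called by limma under any of the 20 alternatives except with the replicate number as a block. The block called 2, CRYAB (adjusted p = 6.75e-04) and HSPH1 (0.00298), 2168 of all genes (19.0%) and 8 of the 83 other chaperone genes. Differences between replicates 1 and 2 of the 2 groups correlated across genes (r = 0.519). Nothing in the labels ties the numbers to a shared culture or day, so what same-numbered libraries share is not known. The number of all genes called was 31 on FPKM as deposited, 30 on TPM (10 higher and 20 lower), 23 when 0.1 was added in place of 1, 8 among genes whose mean reached 5 FPKM, 26 without an eBayes trend, 160 with robust eBayes, 188 with the length trend removed, and, added after seeing the data, 219 without genes listed at 0. By limma 0 genes were called when low genes were kept, with 2163 at an unadjusted p under 0.05. Leaving out a library gave 58 to 199. The median over the 10 genes ran from -0.19 to 0.12 without a library. HSPE1 ran from -0.72 to 0.28, HSPB1 from -0.094 to 1.40, HSP90AA1 from -0.56 to 0.31, PFDN2 from -0.84 to 0.36, HSF1 from -0.0136 to 0.33, HSF2 from -0.0324 to 0.62 and HSPA9 from -0.25 to 0.27. HSPA9 was also -0.0115 on FPKM as deposited, -0.0519 with quantile normalization, -0.0417 with the length trend removed and -0.0026 on interval midpoints (added after seeing the data). HSPA1A was not tested at a mean of at least 5 FPKM, without alternate sequences or on the highest row per symbol. The cause of these differences was not tested. CRYAB rests on 118 to 469 fragments a library, and HSPA1A at its main locus on 6 to 15.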
